A study of Mus musculus with 16 samples.

Results

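This account describes 38 genes of B and T lymphocytes in mammary gland RNA, found by symbol among the 24187 rows of a table of FPKM (fragments per kilobase of gene, scaled to library size). All 38 were found. They comprise 13 genes of B cells, 20 of T cells, 2 used by both lineages (Ltb and Ccr7) and 3 of cytotoxic T and natural killer cells (Gzma, Nkg7 and Klrd1). The mutant animals were Socs2-Δs mice, a CRISPR/Cas9-edited line named for Socs2, which encodes a feedback inhibitor of cytokine signalling, with 3 libraries. They were set against wild-type (WT) C57BL/6 mice bought from a breeder, with 4 libraries. All 7 libraries came from mammary gland at day 13 of pregnancy, and the strain tag reads C57BL/6 for both genotypes. The sources used here do not describe the allele, the number of founder lines, the gland taken or any removal of lymph nodes, nor whether replicates were separate animals. P-values therefore measure the spread between these samples, which may be technical. Genotype and breeding source ran together and cannot be told apart. One tag gives all 7 RNA libraries as wild type, against the titles of the 3 Socs2-Δs libraries, and the titles set the groups. The genes were selected on their FPKM values in these same 7 libraries, of which 2 (Socs2-Δs replicate 2 and WT replicate 4) were high. Levels by library are thus a description and carry no test.

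B cells recognise antigen through membrane immunoglobulin, which signals through the paired chains Cd79a and Cd79b, and T cells through a receptor that signals through the Cd3 chains and Cd247. Both lineages recirculate between blood and lymph nodes, where the chemokine receptors Ccr7 and Cxcr5 place them in the T cell zone and the follicles. The mammary gland holds scattered lymphocytes among its epithelium and fat, and in the mouse the inguinal fat pad also encloses a lymph node. In bulk tissue, more lymphocytes and more RNA per lymphocyte cannot be told apart.

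Read totals recovered from the FPKM steps were 21.3 to 24.5 M reads per library. Socs2 itself measured 17.1, 13.9 and 15.99 FPKM in Socs2-Δs replicates 1 to 3, against 25.6, 22.1, 24.8 and 16.1 FPKM in WT replicates 1 to 4, and the ranges overlapped. Luminal epithelial genes were abundant in all libraries, with the keratin Krt18 at 281.5, 264.8 and 518.1 FPKM in Socs2-Δs replicates 1 to 3, against 237.8, 267.9, 453.0 and 153.0 FPKM in WT replicates 1 to 4. WT replicates 3 and 4 stood apart from the rest in other respects. Neat1, a nuclear RNA, measured 495.9 to 586.2 FPKM in the Socs2-Δs libraries, against 464.1 and 442.2 FPKM in WT replicates 1 and 2 and 11.4 and 14.8 FPKM in WT replicates 3 and 4. Albumin (Alb), of liver, measured 4.01, 2.7 and 3.92 FPKM in Socs2-Δs libraries, against 6.01, 6.15, 80.9 and 1137 FPKM in WT libraries. The genotype differences are therefore also given without those 2 libraries.

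The sequence before the annotated start is shown for 4 receptor genes described below, 3 of B cells and 1 of T cells, because they carry the motif matches counted after them. RefSeq windows on the build GRCm38.p6 were found for 26 of the 38 members, 36 windows in all, and a gene counts as holding a motif when any of its windows does. A gene with several windows thus has more chances than the single windows that give the shares below. The files use the build mm9, so these positions were not joined to them. The 250 bases before the start are given 5′ to 3′ on the gene's own strand. Capitals mark GGAAGT, a core bound by ETS factors, on either strand in Cd79a, Cr2 and Cd3e, and in Cd22 a palindrome of the kind bound by the B cell factor EBF.
Cd79a (chr7:24897247-24897496, plus strand): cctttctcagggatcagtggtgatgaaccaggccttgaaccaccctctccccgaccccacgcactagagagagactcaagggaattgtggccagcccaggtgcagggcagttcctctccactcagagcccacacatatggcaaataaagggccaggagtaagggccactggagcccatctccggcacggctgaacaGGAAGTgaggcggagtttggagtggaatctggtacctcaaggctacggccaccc
Cr2 (chr1:195176720-195176969, minus strand): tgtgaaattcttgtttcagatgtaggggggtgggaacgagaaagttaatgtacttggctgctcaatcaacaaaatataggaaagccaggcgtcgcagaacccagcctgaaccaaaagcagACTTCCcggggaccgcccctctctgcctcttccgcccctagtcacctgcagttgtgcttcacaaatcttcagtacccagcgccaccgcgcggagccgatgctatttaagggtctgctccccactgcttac
Cd22 (chr7:30879029-30879278, minus strand): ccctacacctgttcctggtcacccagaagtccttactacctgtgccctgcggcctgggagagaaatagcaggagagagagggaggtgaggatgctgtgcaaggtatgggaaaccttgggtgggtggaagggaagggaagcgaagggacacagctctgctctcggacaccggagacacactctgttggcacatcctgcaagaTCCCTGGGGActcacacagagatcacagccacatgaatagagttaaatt
Cd3e (chr9:45009612-45009861, minus strand): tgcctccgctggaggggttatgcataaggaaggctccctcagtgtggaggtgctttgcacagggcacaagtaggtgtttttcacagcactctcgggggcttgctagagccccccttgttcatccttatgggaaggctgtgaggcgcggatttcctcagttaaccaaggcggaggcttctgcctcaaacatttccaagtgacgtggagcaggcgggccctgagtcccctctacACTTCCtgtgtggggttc
GGAAGT was present in 6 of the 9 B cell genes and 9 of the 14 T cell genes with a window, against 19.7% of all 32851 windows. The EBF palindrome was present in Cd22 alone of these genes, against 0.779% of all windows. The match lay 54 bases before the start in Cd79a, 130 in Cr2, 49 in Cd22 and 18 in Cd3e. Another 10 strings were searched on both strands. The E-box CANNTG was present in all 9 and all 14, against 66.2% of windows, and GGAAG, which lies within GGAAGT, in 7 and 13, against 64.1%. GAGGAAGT, which also holds GGAAGT, was present in 2 and 1, against 2.44%. TGGGAA, of Ikaros, was present in 3 and 7, against 21.6% of windows. The MYB core AACTG was present in 4 and 9, against 39.1%. For the RUNX core TGTGGT the numbers were 1 and 2, against 14%. For AGATAA, read by factors of the Gata family, they were 0 and 2, against 9.99%. ATGCAAAT (octamer, 1.60% of windows), CTTTGAA (TCF/LEF, 4.46%) and the NF-kB consensus (0.14%) were present in 0 of either. The strings were chosen after the expression values were seen, and a match describes letters only.

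B cell genes were low in 5 libraries and high in the other 2. Cd79a (Entrez 12518), the signalling chain paired with Cd79b, measured 0.611, 58.7 and 0.907 FPKM in Socs2-Δs replicates 1 to 3, against 0.769, 1.1, 0.885 and 90.4 FPKM in WT replicates 1 to 4. Cd79b (Entrez 15985) measured 1.18, 49.9 and 1.74 FPKM in Socs2-Δs libraries, against 1.8, 1.67, 2.94 and 68.4 FPKM in WT libraries. For both, Socs2-Δs replicate 2 and WT replicate 4 were the highest libraries, so the ranges of the genotypes overlapped. Ms4a1, which encodes the B cell surface protein CD20, measured 0.104, 14.5 and 0.113 FPKM in Socs2-Δs libraries, against 0.0572, 0.162, 0.388 and 37.9 FPKM in WT libraries. Cr2, the complement receptor 2 that lowers the threshold of B cell activation, measured 0.0619, 5.61 and 0.0373 FPKM in Socs2-Δs libraries, against 0.0758, 0.0469, 0.0454 and 5.05 FPKM in WT libraries. The same 2 libraries were again the highest, and in the other 5 the highest value of either gene was 0.388 FPKM.

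The transcription factor Pax5, which commits and holds cells in the B lineage, measured 0.0353, 7.23 and 0.192 FPKM in Socs2-Δs libraries, against 0.0974, 0.103, 0.194 and 12.6 FPKM in WT libraries. In the 5 lower libraries that value rested on 1 to 5 reads each, counted up to a factor common to the gene's libraries. Cxcr5, the receptor that draws B cells into follicles, measured 0.163, 5.48 and 0.372 FPKM in Socs2-Δs libraries, against 0.27, 0.255, 0.269 and 9.67 FPKM in WT libraries. Cd37, a tetraspanin of B cells that other leukocytes also express, measured 5.41, 46.1 and 4.39 FPKM in Socs2-Δs libraries, against 8.09, 6.84, 7.92 and 46.5 FPKM in WT libraries. Cd37 was thus the B cell member with the highest level in the 5 lower libraries, where its lowest value was 4.39 FPKM.

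The remaining B cell members showed the same pair of high libraries. Fcer2a, the low-affinity IgE receptor CD23 of follicular B cells, stood out most. It measured 14.2 FPKM in Socs2-Δs replicate 2 and 14.2 FPKM in WT replicate 4, and no more than 0.137 FPKM elsewhere. Blk, a kinase of the Src family used by the B cell receptor, reached 5.61 and 5.98 FPKM in those libraries, and the Fc receptor-like gene Fcrla 7.08 and 11.9 FPKM. For the inhibitory receptor genes Cd22 and Cd72 the values there were 13.6 and 7.46 FPKM, and 14.7 and 8.61 FPKM. Bank1, a scaffold of B cell receptor signalling, had 6.59 and 9.32 FPKM there. It also stood at 1.82 FPKM in WT replicate 3, against 0.342 to 0.692 FPKM in the other 4 libraries.

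**Figure D1:**
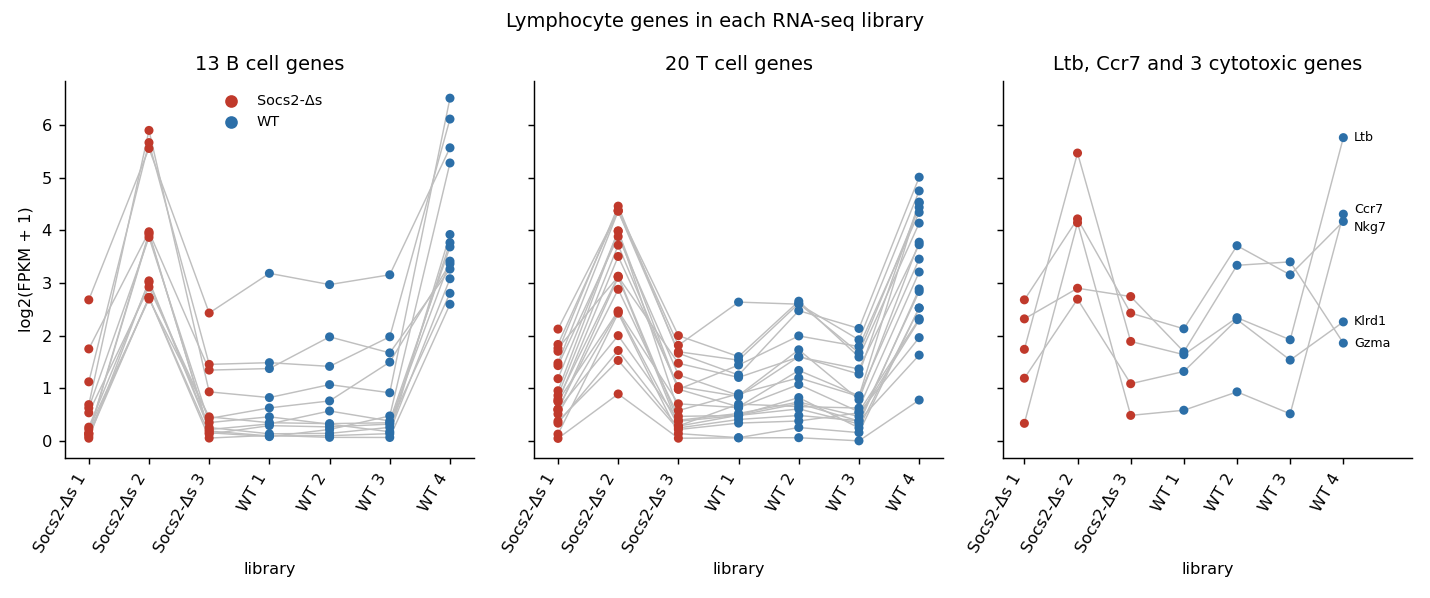
Level of each member, as log2(FPKM + 1), in the 3 Socs2-Δs libraries (red) and the 4 WT libraries (blue); each grey line joins 1 gene, and the panels hold 13 B cell genes, 20 T cell genes, and Ltb, Ccr7 and the 3 cytotoxic genes. Socs2-Δs replicate 2 and WT replicate 4 are the 2 highest libraries for all B and T cell genes, and Gzma is lower in WT replicate 4 than in 5 other libraries.

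T cell genes had the same 2 high libraries but a higher median level in the other 5. Of the T cell receptor's signalling chains, Cd3d measured 0.674, 10.4 and 1.04 FPKM in Socs2-Δs libraries, against 0.796, 2.03, 1.41 and 22.0 FPKM in WT libraries. Cd3e (Entrez 12501) measured 1.69, 13.8 and 1.39 FPKM in Socs2-Δs libraries, against 0.819, 2.32, 0.719 and 12.7 FPKM in WT libraries. Among the 5 lower libraries, WT replicate 2 was the highest for both. Cd3g measured 2.25, 21.0 and 2.17 FPKM in Socs2-Δs libraries, against 1.38, 4.56, 3.4 and 31.2 FPKM in WT libraries. Cd247, the zeta chain of the complex, measured 0.519, 3.0 and 0.312 FPKM in Socs2-Δs libraries, against 0.435, 0.669, 0.377 and 3.91 FPKM in WT libraries. WT replicate 2 again led the 5 lower libraries, and the genotypes overlapped for all 4 chains.

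Coreceptors of both T cell branches were high together. Cd4, which binds MHC class II and is also expressed by some myeloid cells, measured 2.39, 7.7 and 1.78 FPKM in Socs2-Δs libraries, against 1.31, 2.02, 1.58 and 12.3 FPKM in WT libraries. Cd8a, which binds MHC class I, measured 0.818, 12.2 and 0.976 FPKM in Socs2-Δs libraries, against 0.564, 1.53, 0.81 and 9.96 FPKM in WT libraries. Its partner Cd8b1 reached 14.9 FPKM in Socs2-Δs replicate 2 and 22.2 FPKM in WT replicate 4, and 0.490 to 1.29 FPKM elsewhere. Foxp3, the factor of regulatory T cells, was the lowest member, at 0.0326, 0.854 and 0.0353 FPKM in Socs2-Δs libraries, against 0.0399, 0.0424, 0 and 0.711 FPKM in WT libraries. It was listed at 0 in WT replicate 3 and rested on at most 4 recovered reads in each of the other lower libraries.

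The kinases and adaptors behind the receptor followed. Lck, the Src-family kinase bound to the coreceptors, measured 19.6 FPKM in Socs2-Δs replicate 2 and 20.7 FPKM in WT replicate 4, against 1.78 to 5.11 FPKM in the other 5. The adaptor gene Lat had 19.9 and 16.6 FPKM in the same 2 libraries, and the kinase gene Zap70 4.54 and 4.0 FPKM. Genes of resting and recirculating T cells included Lef1 and Tcf7, paired transcription factors, and Il7r, the receptor for the survival factor interleukin 7. Lef1 measured 4.38 and 4.76 FPKM in the 2 high libraries and at most 0.192 FPKM elsewhere. Tcf7 had 19.7 and 25.9 FPKM there and 2.52 to 5.22 FPKM elsewhere, and Il7r 7.63 and 8.25 FPKM there and 0.216 to 0.623 FPKM elsewhere. The costimulatory receptor genes Cd27, Cd28 and Icos reached 1.88 to 7.75 FPKM in those 2 libraries and at most 0.731 FPKM in any other. The surface proteins Cd2, Cd5 and Cd6 reached 4.48 to 19.3 FPKM there and at most 2.98 FPKM elsewhere.

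Ltb, a lymphotoxin subunit with which lymphocytes maintain lymphoid tissue, measured 2.34, 43.3 and 2.71 FPKM in Socs2-Δs libraries, against 2.11, 4.07, 2.79 and 53.3 FPKM in WT libraries. Ccr7, the receptor for lymph node entry, measured 0.259, 16.7 and 0.398 FPKM in Socs2-Δs libraries, against 0.497, 0.906, 0.428 and 18.8 FPKM in WT libraries. Both had the 2 high libraries of the B and T cell genes.

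Cytotoxic genes departed from that order. Gzma, which encodes the protease granzyme A, measured 3.99, 6.47 and 5.69 FPKM in Socs2-Δs libraries, against 2.23, 9.1, 9.57 and 2.62 FPKM in WT libraries. WT replicates 2 and 3 were the highest for it and WT replicate 4 was among the lowest. Nkg7, a protein of cytotoxic granules, measured 5.41, 17.6 and 4.38 FPKM in Socs2-Δs libraries, against 3.38, 12.1, 7.91 and 17.0 FPKM in WT libraries, with WT replicate 2 close behind the 2 high libraries. The natural killer receptor gene Klrd1 reached 5.47 FPKM in Socs2-Δs replicate 2, and it had 3.94 FPKM in WT replicate 2 and 3.79 FPKM in WT replicate 4. Of 14 further natural killer and cytotoxic genes, 3 had Socs2-Δs replicate 2 and WT replicate 4 as the highest libraries. The chemokine Ccl5 was one of them, with 12.6, 97.3 and 10.5 FPKM in Socs2-Δs libraries, against 10.1, 27.7, 10.2 and 80.8 FPKM in WT libraries.

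Of the 38 members, 36 had Socs2-Δs replicate 2 and WT replicate 4 as their 2 highest libraries: all 13 B cell genes, all 20 T cell genes, Ltb, Ccr7 and Nkg7. Of the 13392 genes averaging 1 FPKM or more, 500 had that order, or 3.73%. The members were described for this order, so nothing is read from the difference. For each member the lower of the 2 high libraries was divided by the highest of the other 5. The ratio had a median of 17.0 over the B cell genes, with a range of 2.93 (Cd72) to 103.1 (Fcer2a). It had a median of 5.19 over the T cell genes, with a range of 3.14 (Lat) to 22.8 (Lef1). A ratio over 4 was found for 11 of the 13 B cell genes and 15 of the 20 T cell genes, against 63 of the 13392 genes, or 0.47%, and this too restates the choice. The cytotoxic genes had ratios of 1.41 (Nkg7), 0.962 (Klrd1) and 0.274 (Gzma).

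**Figure D2:**
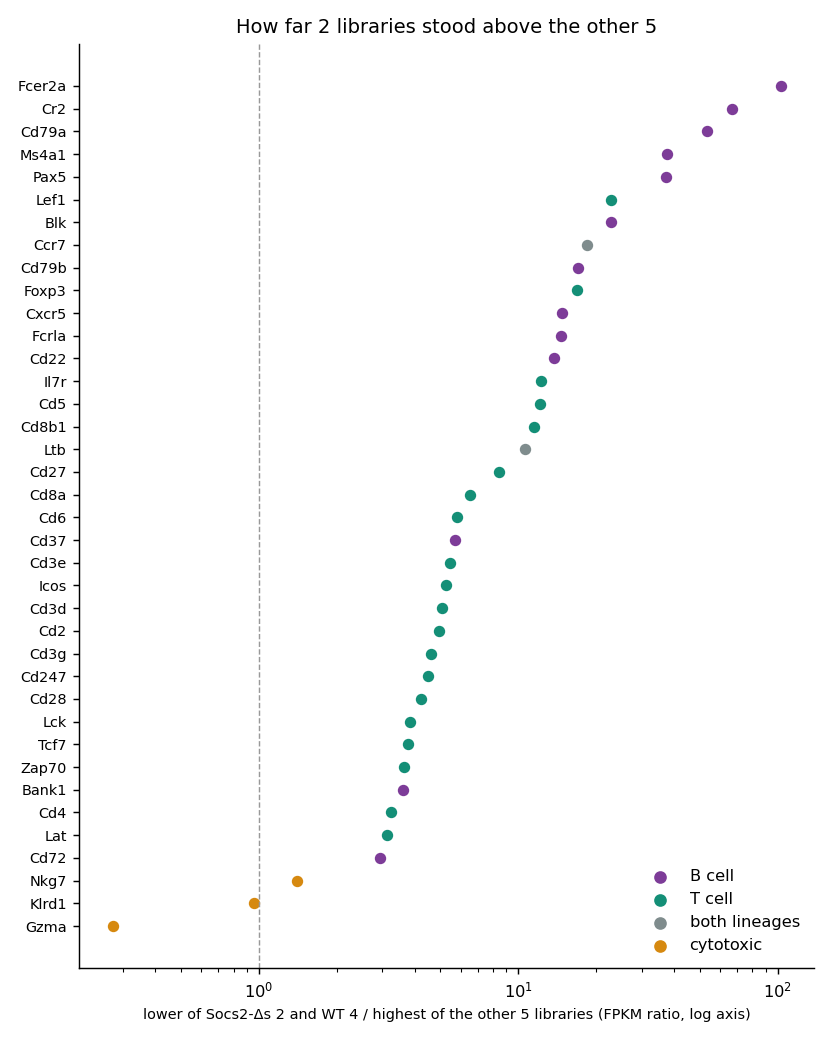
For each of the 38 members (rows), the lower FPKM of Socs2-Δs replicate 2 and WT replicate 4 divided by the highest FPKM of the other 5 libraries, on a log axis; colours give the gene class and the dashed line marks a ratio of 1. Fcer2a, Cr2, Cd79a, Ms4a1 and Pax5 have the highest ratios, and Gzma and Klrd1 lie under 1.

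The B and T members differed in the level kept by the 5 lower libraries. Across members, the median FPKM of the 13 B cell genes was 0.198, 13.6 and 0.272 in Socs2-Δs replicates 1 to 3, against 0.27, 0.255, 0.299 and 11.9 in WT replicates 1 to 4. For the 20 T cell genes the median was 0.711, 7.73 and 0.56 in Socs2-Δs libraries, against 0.594, 1.2, 0.63 and 9.11 in WT libraries. B cell genes thus had the higher median in the 2 high libraries and T cell genes in the other 5. The summed FPKM of B cell genes divided by that of T cell genes was 0.518, 1.27 and 0.539 in Socs2-Δs libraries, against 0.708, 0.396, 0.824 and 1.38 in WT libraries. This quotient was above 1 in Socs2-Δs replicate 2 and WT replicate 4 and under 1 in the other 5. In those 5, Cd37, which other leukocytes also express, supplied 4.39 to 8.09 FPKM of a B cell sum of 10.3 to 17.4 FPKM. Among those 5, WT replicate 2 was the highest library for 15 of the 20 T cell genes, for Ltb and Ccr7, and for 3 of the 13 B cell genes. WT replicate 3 was the highest of the 5 for 5 B cell genes and for 1 T cell gene. The members differ in length and share the 7 libraries, so these counts describe the libraries and were not tested.

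The 2 high libraries also differed from each other by gene. The level in Socs2-Δs replicate 2 over that in WT replicate 4 had a median of 0.729 over the B cell genes and 0.934 over the T cell genes. Intervals below are exact binomial intervals on the recovered reads and cover counting error only. Among B cell genes the ratio was 0.382 (95% interval 0.349 to 0.418) for Ms4a1 and 0.65 (95% interval 0.611 to 0.691) for Cd79a. It was 1.82 (95% interval 1.66 to 2.0) for Cd22 and 1.71 (95% interval 1.47 to 1.99) for Cd72, and 1.0 (95% interval 0.902 to 1.11) for Fcer2a. Markers of 1 lineage thus lay on both sides of 1 within this pair of libraries. Among T cell genes the ratio was 0.47 (95% interval 0.409 to 0.54) for Cd3d and 1.08 (95% interval 0.942 to 1.24) for Cd3e, chains of 1 receptor. It was 0.671 (95% interval 0.596 to 0.756) for Cd8b1 and 1.22 (95% interval 1.1 to 1.35) for Cd8a. Over all 38 members, the interval lay above 1 for 8 and below 1 for 17. Among the 13392 genes averaging 1 FPKM or more it lay above 1 for 39.9% and below 1 for 42.5%. Among the 35 members of that set it did so for 8 and 16. The share below 1 was thus close to that of all genes, and the share above 1 was smaller. Interval width depends on a gene's reads, so the shares are not fully alike. Each of these libraries is a single sample, so the ratios compare the libraries and not the genotypes.

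**Figure D3:**
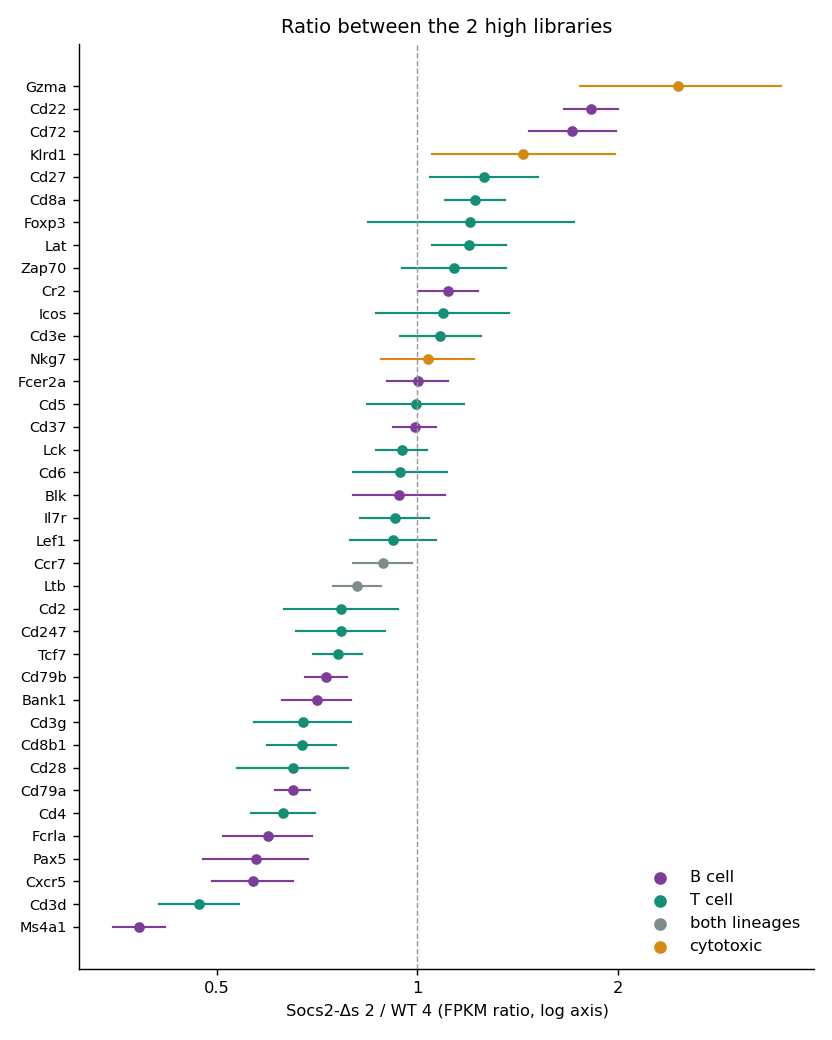
FPKM in Socs2-Δs replicate 2 divided by FPKM in WT replicate 4 for each member (rows, log axis), with bars for the 95% binomial interval on the reads, which covers counting error only; colours give the gene class. Ratios run from 0.382 (Ms4a1) to 2.46 (Gzma).

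Genes outside the 38 showed which other lists shared the pattern. Of 23 further B cell genes listed, 19 were in the table, and 16 of these had the same 2 highest libraries. Faim3, a receptor for IgM, measured 0.0286, 22.7 and 0.404 FPKM in Socs2-Δs libraries, against 0.132, 0.112, 0.346 and 30.9 FPKM in WT libraries. Ebf1 and Blnk, which stromal, fat or epithelial cells also express, and Bcl11a did not have this order. Of 26 further T cell genes, 22 were in the table and 20 had the same 2 highest libraries. Gimap3, of T cell survival, measured 3.82, 35.1 and 3.3 FPKM in Socs2-Δs libraries, against 3.4, 7.86, 1.53 and 20.1 FPKM in WT libraries. Thy1 and Gata3, which mammary stroma and luminal epithelium also express, did not share it, at 67.5 to 105.8 and 20.6 to 56.4 FPKM over the 7 libraries.

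Chemokines of lymphoid stroma moved with the lymphocyte genes. Ccl19, the ligand of Ccr7, measured 1.3, 51.7 and 2.25 FPKM in Socs2-Δs libraries, against 3.43, 7.11, 2.48 and 59.2 FPKM in WT libraries. Cxcl13, the ligand of Cxcr5, measured 0.441, 22.0 and 1.08 FPKM in Socs2-Δs libraries, against 1.38, 0.358, 6.02 and 64.6 FPKM in WT libraries. Of the 11 listed genes of lymph node stroma in the table, 5 had Socs2-Δs replicate 2 and WT replicate 4 as the 2 highest. Bst1, counted among them, was near a tie, at 2.80 FPKM in Socs2-Δs replicate 2 and 2.79 FPKM in WT replicate 3. Coch, also counted, rested on 6 reads in WT replicate 4 and 6 in WT replicate 1. The list's summed level was 129.2 FPKM in Socs2-Δs replicate 2, 197.5 FPKM in WT replicate 4, and 53.5 to 95.1 FPKM in the other 5. That sum includes Ccl19 and Cxcl13 and is not separate from them. Cr1l was highest in WT replicate 3, at 58.6 FPKM, and Tnfsf11 in WT replicate 1, at 19.95 FPKM. Ccl21a, another Ccr7 ligand, was listed at 0 in all 7 libraries, while Madcam1, an address molecule of vessels that lymphocytes enter, was lowest in WT replicate 4 (1.07 FPKM, against 4.92 to 8.03 FPKM elsewhere). The part of lymph node tissue in the levels was not tested.

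Genes of all leukocytes shared the order in 8 of 10 cases, such as the actin regulator Coro1a with 19.5, 93.3 and 18.6 FPKM in Socs2-Δs libraries, against 20.8, 32.9, 32.5 and 135.6 FPKM in WT libraries. Plasma cell genes did so in 2 of 9 cases, including Pou2af1, which is also counted among the further B cell genes. The joining chain gene Igj measured 7.62, 24.2 and 3.85 FPKM in Socs2-Δs libraries, against 11.1, 44.7, 100.1 and 61.6 FPKM in WT libraries, and was highest in WT replicate 3. Macrophage genes did so in 0 of 10, with summed levels of 569.1, 785.3 and 578.7 FPKM in Socs2-Δs libraries, against 781.4, 878.4, 1505.3 and 1440.8 FPKM in WT libraries. Among dendritic cell genes 4 of 9 had the order, led by the chemokine Ccl22 with 12.4 FPKM in Socs2-Δs replicate 2, 13.9 FPKM in WT replicate 4 and at most 1.01 FPKM elsewhere. For germinal centre and cycling genes it was 2 of 8, for granulocyte genes 1 of 5, for thymic and progenitor genes 1 of 5, and for lymphatic endothelium, luminal epithelium, adipocytes, liver and salivary gland 0 each. Cxcr2 and Dntt, the granulocyte and thymic cases, rested on 18 and 9 reads in Socs2-Δs replicate 2 and 42 and 21 in WT replicate 4. Rag1 and Rag2, which rearrange receptor genes in lymphocyte precursors, did not exceed 0.012 FPKM in any library. WT replicate 3 was high with WT replicate 4 for liver and salivary gland genes, at summed levels of 222.6 and 2001.2 FPKM and of 536.8 and 278.7 FPKM, while its lymphocyte genes were low. Of the genes in these lists that averaged 1 FPKM or more, 0 were called between genotypes by the limma test described below. Over all 13392 genes 6 were called, or 0.0448%, so this 0 says little. Listed genes under that mean were not tested. Only 5 of the 14 natural killer and cytotoxic genes and 1 of the 5 thymic and progenitor genes were.

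**Figure D4:**
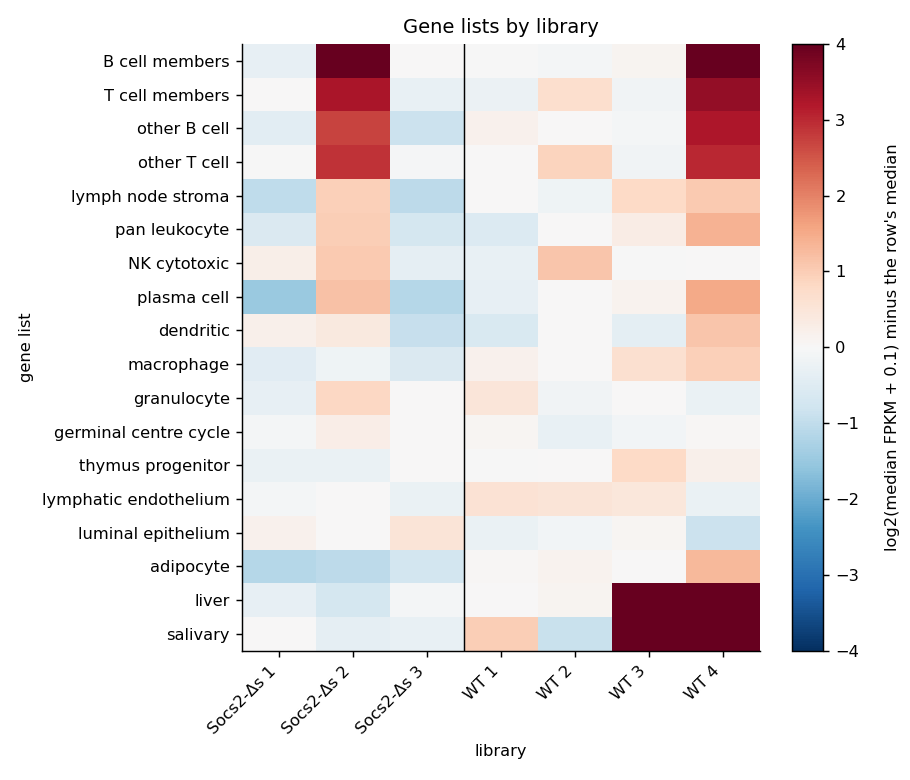
Median FPKM of each gene list (rows) in each library (columns, Socs2-Δs left of the line and WT right of it), as log2(median FPKM + 0.1) minus the row's median over the 7 libraries; colours are capped at both ends. Socs2-Δs replicate 2 and WT replicate 4 are high for B and T cell lists, and WT replicates 3 and 4 for liver and salivary gland lists.

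The 10 genes outside the members with the highest ratio of the lower of the 2 libraries to the highest of the other 5 included Faim3, Nsg2, Tnfrsf13c, H2-Ob, Btla, Ccl22, Spib and Ikzf3. The ratio was 56.2 for Faim3, the highest of the 10, and 9.63 for Ikzf3, the lowest. Tnfrsf13c, the receptor for the B cell survival factor BAFF, measured 0.246, 5.96 and 0.17 FPKM in Socs2-Δs libraries, against 0.165, 0.262, 0.172 and 7.77 FPKM in WT libraries. Btla, an inhibitory receptor of lymphocytes, measured 0.409, 9.83 and 0.272 FPKM in Socs2-Δs libraries, against 0.303, 0.553, 0.45 and 9.28 FPKM in WT libraries. Members filled 7 of the top 10 places and 12 of the top 20 by this ratio, with 35 members among the genes ranked. The ratio uses the 2 libraries in which the members were known to be high. These places therefore restate the choice of members and are no separate result.

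The comparison of genotypes asked whether lymphocyte genes differed between Socs2-Δs and WT glands. None of the members passed with limma on log2(FPKM + 1), at a Benjamini-Hochberg adjusted p under 0.05. Of the 38, 35 reached the mean of 1 FPKM needed for the test, with 0 higher and 0 lower, and 0 had an unadjusted p under 0.05. Over all 13392 genes 6 were called, or 0.0448%, 6 higher (0.0448%) and 0 lower (0%). At an unadjusted limma p under 0.05, 1222 of these genes were higher and 1202 lower. The members were chosen with 1 high library in each genotype, which widens their SE. Their count of 0 is thus no evidence of equal levels. Only 15 members would have reached a mean of 1 FPKM without Socs2-Δs replicate 2 and WT replicate 4. The median log2 difference, Socs2-Δs minus WT, was 0.04 over the 13 B cell genes and 0.05 over the 20 T cell genes, beside -0.004 over all genes tested. Each genotype held 1 high library, and for the members below the SE was larger than the difference. Cd79a averaged 20.1 ± 33.5 FPKM in Socs2-Δs glands and 23.3 ± 44.7 FPKM in WT glands (SD, n = 3 and 4), with a log2 difference of 0.18 (SE 1.73, limma adjusted p = 0.958). Cd3e averaged 5.61 ± 7.05 FPKM in Socs2-Δs glands and 4.14 ± 5.75 FPKM in WT glands, with a log2 difference of 0.40 (SE 0.87). Cd22 had the largest difference of the members, 0.61 (SE 1.00), with 4.80 ± 7.62 FPKM in Socs2-Δs glands and 2.05 ± 3.61 FPKM in WT glands. Its adjusted p of 0.741 with limma was the lowest of the members. Log2 differences on this scale understate those of low genes.

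Single libraries set the direction of the difference. Without Socs2-Δs replicate 2 the median was -0.92 over B cell genes and -0.60 over T cell genes, and 0 of the 38 differences lay above 0. Without WT replicate 4 the medians were 0.88 and 0.61, and 36 of the 38 lay above 0. Without either library they were -0.13 and -0.10, and 7 of the 38 lay above 0. In that set of 5 libraries 15 members were tested and 0 passed, with Cd2 and Cd37 lower at an unadjusted p under 0.05. Of all 13260 genes tested there, 632 were lower and 534 higher at that unadjusted limma p, and 0 passed. The 2 genes are thus not read as a result. The summed B cell level was then 11.3 and 10.3 FPKM in the 2 Socs2-Δs libraries, against 14.2, 14.8 and 17.4 FPKM in the 3 WT libraries, of which Cd37 supplied 4.39 to 8.09 FPKM. The summed T cell level was 21.8 and 19.1 FPKM in Socs2-Δs libraries, against 20.1, 37.4 and 21.1 FPKM in WT libraries. The groups overlapped for T cell genes and not for the B cell sum. Adipocyte and macrophage genes also had lower sums in Socs2-Δs than in WT glands among these 5 libraries. Their sums were 2862 and 4722 FPKM, and 569.1 and 578.7 FPKM, in Socs2-Δs replicates 1 and 3. In WT replicates 1 to 3 they were 8256, 8369 and 9558 FPKM, and 781.4, 878.4 and 1505.3 FPKM. Lymphatic endothelium sums separated too, at 25.3 and 25.1 FPKM in Socs2-Δs glands against 43.3, 45.4 and 51.7 FPKM in WT glands. The part of these lists in the B cell sum was not tested. Without WT replicates 3 and 4 the medians were 0.87 over B cell genes and 0.57 over T cell genes, and 0 of 33 tested members passed. Of all 13276 genes tested there, 189 were called higher and 95 lower. Socs2-Δs replicate 2 was then the only high library left, so these medians and the count of members are not read as a result.

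**Figure D5:**
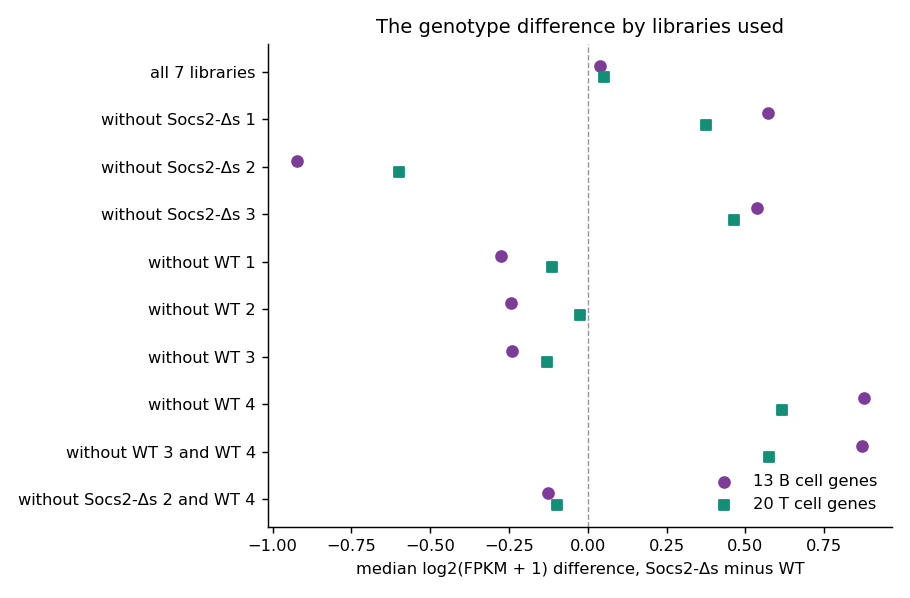
Median log2(FPKM + 1) difference, Socs2-Δs minus WT, over the 13 B cell genes (circles) and 20 T cell genes (squares), with all 7 libraries and with the libraries named at the left removed. The median is -0.92 for B cell genes without Socs2-Δs replicate 2 and 0.88 without WT replicate 4.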

How the data were processed

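Poly(A) RNA libraries of mouse mammary gland were made with a TruSeq RNA kit, per the labels' protocols. The authors deposited FPKM per gene, 1 column per library. CASAVA, Bowtie2, STAR and DESeq2 and the build mm9 are named, with no role or version, per the submitters' processing notes. No source used here states the annotation, the use of strand or a filter, so reads of overlapping or antisense genes could be shared. Another 9 samples, of other assays, were not used here.

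Members and gene lists were chosen with earlier results of these data known. Whole reads were recovered from the steps between FPKM values (tolerance 0.02 of a read), up to a factor common to a gene's libraries, for all 21044 rows above 0. They served for depth and intervals only. Genotypes were compared with limma 3.58.1 (R 4.3.3), with moderated variances that follow the mean, on log2(FPKM + 1), without covariates. It took the 13392 genes averaging 1 FPKM or more, and p-values were adjusted over all of them. On artificial data with 200 changed genes it recovered 39% of changes of log2 size 1 and 82% of those of log2 size 2, with 2 false calls. There the changed genes were drawn at random from all tested genes, with errors independent between genes. These percentages thus do not give the recovery for the members, whose SE the 2 high libraries widen. Values in every library are given for members averaging 10 FPKM or more and for lineage-defining members, the others by range. Of other lists, genes were taken from the 3 most abundant of each and from those at 0 in all libraries (Ccl21a). Others came from the 10 genes most like the members. Bcl11a, Bst1, Coch, Cxcl13, Cxcr2, Dntt, Madcam1, Pou2af1, Rag1 and Rag2 were named after their values were seen. Some of those like genes are not reported here. Alternatives were other pseudocounts, filters, scalings and variance models, left-out libraries, a replicate block and a term for WT replicates 3 and 4.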

Additional observations from a re-analysis of the deposited data

Results flagged for a closer look

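WT replicate 4 lay above the other 3 WT libraries for 31 of the 38 members by a gap, as a share of the whole WT range, larger than Dixon's 95% critical value for 4 samples. The members were selected for being high in WT replicate 4 and share the same 4 libraries, so the gaps restate that choice. They are a description and no test, for single genes and for sums alike. Of the 13392 genes averaging 1 FPKM or more, 401 had such a gap in WT replicate 4, or 2.99%, and so did 28 of the 35 members among them. The rate of about 1 of 20 that chance gives holds for a group not chosen on its values and cannot be applied to these genes. For B cell genes the gap was 1 for Cd79a, Cxcr5 and Fcer2a, 0.99 for Ms4a1, Cr2, Blk and Pax5, 0.98 for Cd79b and Fcrla, 0.97 for Cd22 and Cd37, and 0.85 for Bank1. Among T cell genes it was 0.99 for Il7r, 0.98 for Cd8b1, 0.97 for Lef1, 0.96 for Cd5, 0.95 for Icos, and 0.94 for Cd3d, Cd4, Cd27 and Foxp3. It was 0.93 for Cd2 and Cd28, 0.92 for Cd247, 0.9 for Cd8a, 0.89 for Cd3g and Tcf7, and 0.87 for Cd3e and Cd6. Ltb had 0.96 and Ccr7 0.97. The summed B cell genes had 0.99 and the summed T cell genes 0.92. The members below the critical value were Cd72, Lck, Zap70, Lat, Gzma, Nkg7 and Klrd1.

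The genes most like the members also had such a gap in WT replicate 4: 0.99 for Faim3, Nsg2, Tnfrsf13c and H2-Ob, 0.97 for Btla and Spib, 0.96 for Ccl22 and 0.94 for Ikzf3. These genes were picked for being high in that library. The Socs2-Δs group has 3 libraries and was not examined this way.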

How the results depend on the processing

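No member was called under any of the 20 alternatives run (limma adjusted p of at least 0.150 for each member tested). The lowest p came without WT replicates 3 and 4 and Socs2-Δs replicate 2, a set chosen after seeing the data. Leaving out 1 library moved the B cell median between -0.92 and 0.88 and the T cell median between -0.60 and 0.61. With all 7 libraries they were 0.04 and 0.05, so the sign changed. These moves were smaller than the pooled SD of the class level within genotypes, 1.74 for B and 1.21 for T cell genes. That SD is itself raised by the 2 high libraries, so a move within it is no sign of stability. The level of either class in each library also moved by less than that SD with median-of-ratios scaling and with a pseudocount of 0.1. The count over all genes was 6 higher and 0 lower. It was 1 higher with a pseudocount of 0.1 and 1 without a filter, 23 higher and 3 lower with quantile normalization, and 189 higher and 95 lower without WT replicates 3 and 4. It was 0 with a term for those libraries, 0 without WT replicate 4 and Socs2-Δs replicate 2, and 0 to 31 higher and 0 to 1 lower with 1 library left out. The cause of these moves was not tested.

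With the replicate block 0 genes and 0 members were called, and the medians were 0.88 for B and 0.61 for T cell genes, as the block leaves WT replicate 4 without a partner. Deviations of same-numbered libraries correlated at 0.35, -0.10 and 0.28 across genes for numbers 1 to 3. Differently numbered libraries correlated at -0.20 to 0.12, except Socs2-Δs replicate 2 with WT replicate 4 at 0.34. Numbers 1 and 3 thus went together and number 2 did not. The main fit used no pairs, and whether the numbers mark pairs is not settled. Below about 0.2 FPKM, members rested on few reads.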
